A study of Mus musculus with 38 samples.

Results

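Arhgef15, Kcnn2, Ptpa, Rnf2, Psmd4, Cdkn1b, Trp53, and Cbln1 are 8 genes whose products have been reported as substrates or downstream targets of the ubiquitin ligase UBE3A. They were taken by gene symbol, and all 8 were found among the 54165 genes of the count table. RNA-seq of the prefrontal cortex (PFC) and hypothalamus (Hypo) of adult mice was used to compare animals with extra Ube3a with their WT littermates in both sexes. The 38 libraries came from 25 mice, of which 13 gave both tissues. The PFC was sampled in 20 mice, 5 for each sex and genotype, and the Hypo in 18 mice, 4 WT and 5 Ube3a2X of each sex.

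All mice were of the FVB/NJ strain. Ube3a2X mice were homozygous for a Ube3a transgene and so held 2 extra copies of the gene whichever parent passed them on, while WT littermates had none. The transgenic protein ends in a tag, and the study itself states that the ligase activity of the tagged copies is uncertain. It also cites raised ubiquitination in the brains of these mice, and it takes its expression results as evidence against a large loss of activity. PFC tissue came from small punches of frontal sections and Hypo tissue was excised whole, and the PFC libraries were made from less RNA. Libraries are named here by tissue, genotype, sex, and the number of the mouse.

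UBE3A attaches ubiquitin to other proteins, most of which are then degraded by the proteasome, and it also acts as a transcriptional coactivator. In neurons the gene is expressed mainly from the maternal allele, and its loss and its duplication are linked to Angelman syndrome and to autism. A change in the stability of a substrate protein need not be visible in its mRNA, which is what RNA-seq measures, whereas Cbln1 has been reported as a target whose transcript itself falls when UBE3A is in excess.

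The 8 genes are protein coding and lie on 7 chromosomes of the GRCm38 build. Arhgef15 (chr11:68943155-68957480, minus strand) encodes Ephexin5, an exchange factor for RhoA that acts downstream of Eph receptors at excitatory synapses. Kcnn2 (chr18:45268860-45686024, plus strand) encodes the SK2 channel, a potassium channel opened by calcium through calmodulin. Ptpa (chr2:30416039-30447806, plus strand) encodes an activator of the protein phosphatase PP2A. Rnf2 (chr1:151458004-151500955, minus strand) encodes RING1B, the ubiquitin ligase of Polycomb repressive complex 1. Psmd4 (chr3:95032694-95042614, minus strand) encodes a ubiquitin receptor of the proteasome. Cdkn1b (chr6:134920401-134925513, plus strand) encodes a cyclin-dependent kinase inhibitor, and Trp53 (chr11:69580359-69591873, plus strand) encodes the tumour suppressor p53. Cbln1 (chr8:87468405-87472609, minus strand) encodes cerebellin 1, a secreted organizer of synapses that joins neurexins to delta-type glutamate receptors. The gene models of Rnf2, Cbln1, and Kcnn2 overlap genes of the opposite strand, and the strand setting used for counting is not given in the sources used here. The overlapping partner of Rnf2, Trmt1l, had 75728 reads over all libraries beside 102050 for Rnf2, so their reads may not be fully separated. The same holds for Ube3a, whose opposite-strand partner Snhg14 had 369530 reads beside 2435561 for Ube3a.

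Depth was 36.9 to 69.1 M reads counted to genes per PFC library and 39.0 to 380.8 M per Hypo library, and RIN, a score of RNA integrity, was 6.7 to 8.9 and 6.8 to 9.3. A pair of libraries stood apart from the rest of their tissue. The library of Hypo WT female 471 held the highest or lowest value of the 18 for 75.8% of the genes tested, where an equal share would be 11.1%, and its summed level of the pituitary genes Prl, Gh, and Cga was 5336 CPM (reads scaled to library size by TMM), against a median of 97.6 CPM over the Hypo WT libraries. The library of PFC Ube3a2X female 468 was highest or lowest of 20 for 46.7% of genes, where an equal share would be 10%, and had the lowest AT dropout, a Picard score of missing AT-rich sequence, at 10.6. Reads lay on the strand the kit predicts in under 96% of cases in all 10 PFC WT libraries and in 96% or more in 6 of the 10 PFC Ube3a2X libraries, so this strand share moved with genotype. The 5 hypothalamic marker genes summed to under 1 CPM in every PFC library and to 345 to 1933 CPM in every Hypo library. Values without these libraries, or within one range of the strand share, are given where they bear on a result.

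The level of Ube3a itself was checked first. In the PFC, WT libraries had 177 CPM at the lowest, 213 at the median, and 248 at the highest, and Ube3a2X libraries 613, 1006, and 2059. In the Hypo, the WT levels were 121, 320, and 383 CPM and the Ube3a2X levels 807, 1342, and 1812 CPM. The genotypes did not overlap in either tissue. The log2 fold change of Ube3a was 2.32 (SE 0.15, edgeR adjusted p = 5.11e-07) in the PFC and 1.97 (SE 0.18, adjusted p = 0.000706) in the Hypo. The extra Ube3a varied more than 3-fold between Ube3a2X mice of the PFC, with the highest level in female 468, and in the Hypo the WT female 471 was far below every other WT library, whose lowest value was 291 CPM. The test had limits even for Ube3a, since within Hypo males its adjusted p was 0.082 although the genotypes were separate.

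**Figure D1:**
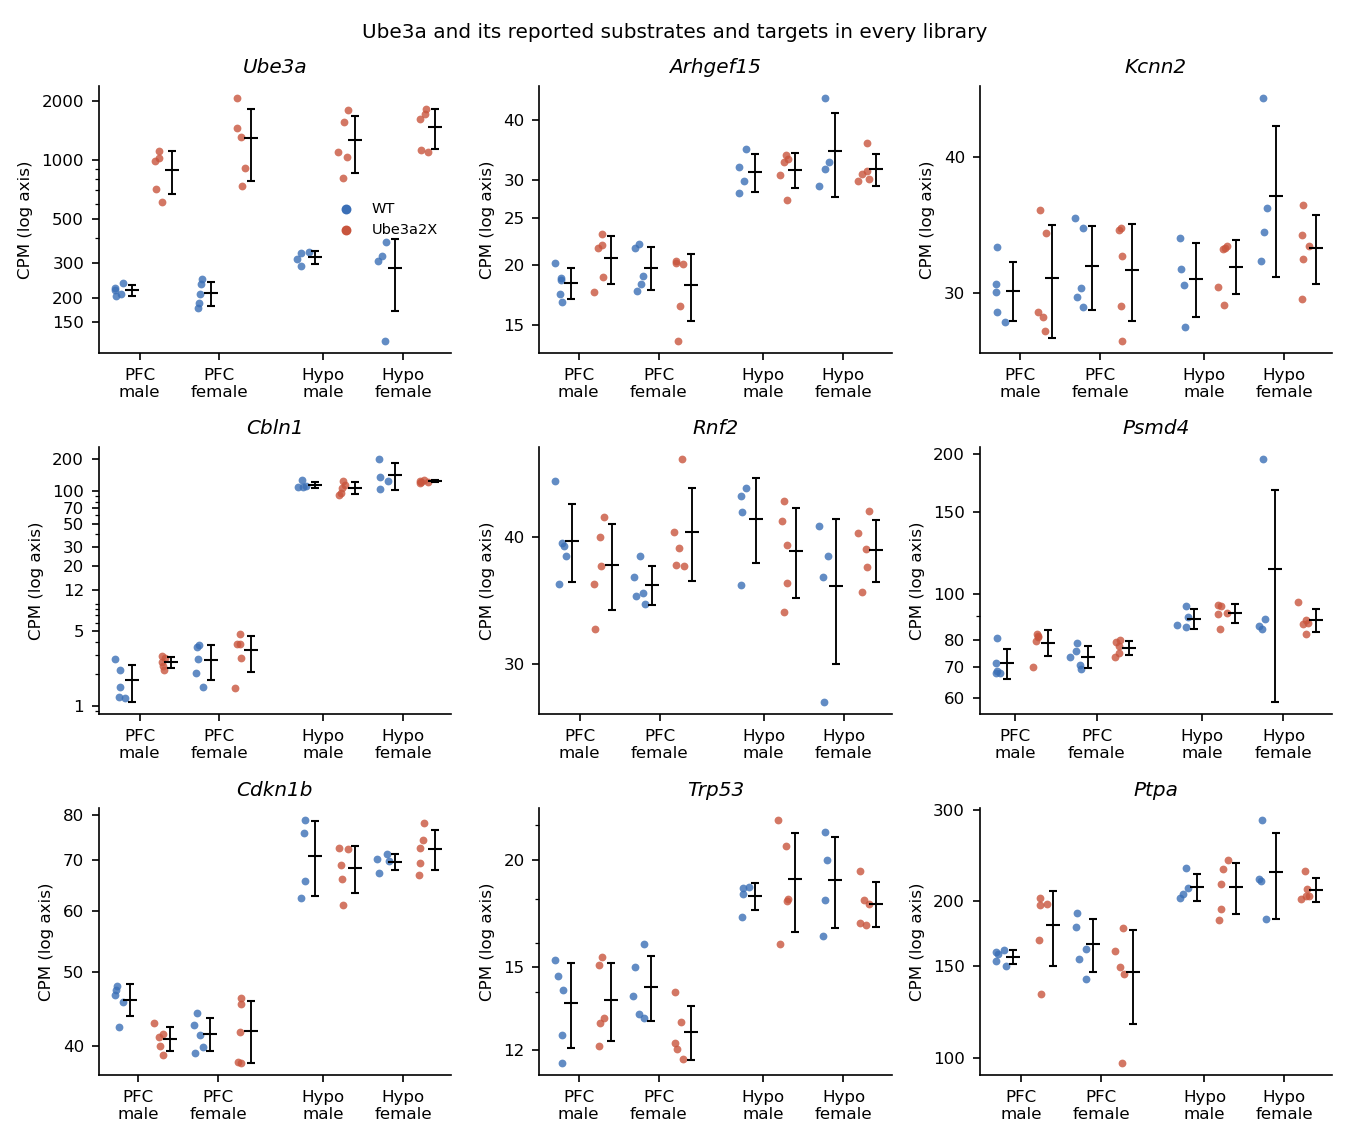
Levels of Ube3a and the 8 genes in every library, by tissue, sex, and genotype, as TMM-scaled CPM on a log axis. Points are mice, horizontal marks and bars are the mean and SD of each group (n = 5, or 4 for Hypo WT), and CPM was scaled within each tissue. Ube3a separates the genotypes in both tissues, while the points of WT and Ube3a2X mice overlap for each of the 8 genes.

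No member differed between the genotypes in the PFC after correction over all genes. Of the 7 members with enough reads to be tested, 0 passed an adjusted p of 0.05 for the genotype effect averaged over the sexes in edgeR, DESeq2, or limma-voom, against 0.0156% of the 12824 genes tested in edgeR. At an unadjusted p under 0.05, 1 of 7 passed, Psmd4, against 7.47% of all genes. The median log2 fold change was 0.01 over the 7 members and 0.01 over all genes, with 4 members above 0 and 3 below. For Psmd4 the WT libraries had 67.7, 70.8, and 80.5 CPM at the lowest, median, and highest, and the Ube3a2X libraries 69.8, 79.4, and 82.3 CPM. The ranges overlapped widely, with 3 of 10 Ube3a2X libraries above every WT library. The log2 fold change of Psmd4 was 0.12 (95% interval 0.03 to 0.21, edgeR adjusted p = 0.505). It was 0.06 with RIN and the strand share as covariates and 0.04 within the 14 libraries whose strand share was under 96%, both chosen after seeing the data. Of those 14 libraries only 1, number 258, is a Ube3a2X male, and the value for males that enters the average rests on this mouse.

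The other members of the PFC had intervals that held 0. The 95% interval of the log2 fold change ran from -0.11 to 0.20 for Arhgef15, from -0.12 to 0.15 for Kcnn2, from -0.04 to 0.14 for Ptpa, and from -0.09 to 0.09 for Rnf2. It ran from -0.18 to 0.01 for Cdkn1b and from -0.15 to 0.10 for Trp53. By the same fit Ube3a was 4.99-fold higher. The intervals cover this fit only. With RIN and the strand share, and no surrogate variables, Ptpa was at -0.10, outside its interval. Within the 14 libraries of low strand share, with RIN alone, Ptpa was at -0.17, Arhgef15 at 0.21, and Rnf2 at 0.11, each outside its interval. Bulk tissue cannot tell fewer cells of a type from less RNA per cell. The summed level of the endothelial markers was 105 to 194 CPM in WT and 107 to 292 CPM in Ube3a2X mice, and that of the oligodendrocyte markers 353 to 920 and 301 to 1132 CPM. The log2 fold change of the 3 oligodendrocyte markers had a median of 0.24 in each tissue, and none of them passed. Their part in the members' values was not tested.

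Cbln1 was the least abundant of the 8 genes in the PFC. It had 49 to 273 reads per library, below the minimum of 100 reads in enough libraries to be left out of the test. WT males had 1.19, 1.23, 1.53, 2.16, and 2.74 CPM and Ube3a2X males 2.16, 2.38, 2.57, 2.82, and 2.92 CPM. WT females had 1.51, 2.02, 2.73, 3.60, and 3.73 CPM and Ube3a2X females 1.48, 2.84, 3.77, 3.84, and 4.66 CPM. The medians were 2.09 in WT and 2.83 in Ube3a2X libraries, with overlap in both sexes. With the looser filter of filterByExpr, which keeps Cbln1, its log2 fold change was 0.72 (95% interval 0.31 to 1.14) with an edgeR adjusted p of 0.212, so it did not pass. The summed level of the thalamic markers Tcf7l2, Prkcd, and Rora was 91.8 to 125 CPM in PFC WT and 87.8 to 171 CPM in PFC Ube3a2X libraries, and its part in the Cbln1 level was not tested.

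**Figure D2:**
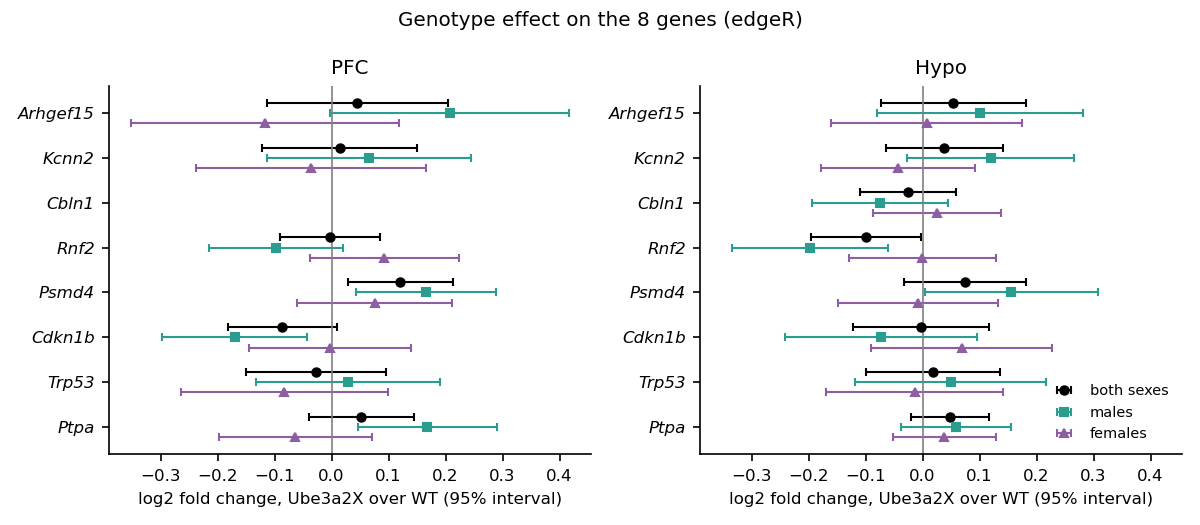
Log2 fold change of Ube3a2X over WT with its 95% interval for the 8 genes in the PFC (left) and Hypo (right), from edgeR, averaged over the sexes (circles), in males (squares), and in females (triangles). Averaged over the sexes, the interval lies off 0 for Psmd4 in the PFC and for Rnf2 in the Hypo, and neither passed the correction over all genes. Cbln1 has no PFC value because it did not pass the read filter.

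Ptpa, Psmd4, and Cdkn1b gave the smallest p in PFC males. None of the 7 members passed in males, against 0.117% of all genes, or in females, against 0.0078%, and 3 of 7 in males and 0 of 7 in females passed at an unadjusted p under 0.05, against 18.6% and 14.5% of all genes. DESeq2 and limma-voom called 0 members in either sex. Ptpa had 149.9, 153.5, 158.4, 159.4, and 161.6 CPM in WT males and 132.9, 168.8, 196.4, 197.6, and 203 CPM in Ube3a2X males, so that 4 of 5 Ube3a2X males lay above every WT male and 1 lay below. Its log2 fold change in males was 0.17 (SE 0.06, edgeR adjusted p = 0.161). For Psmd4 the value in males was 0.17 as well (adjusted p = 0.165). It had 67.7, 67.8, 68.6, 71.2, and 80.5 CPM in WT and 69.8, 79.6, 80.9, 81.5, and 82.3 CPM in Ube3a2X males. Cdkn1b lay in the other direction, at -0.17 (adjusted p = 0.165), with 42.3, 45.6, 46.6, 47.3, and 47.9 CPM in WT males and 38.9, 40.04, 41.1, 41.5, and 42.8 CPM in Ube3a2X males. Only the highest Ube3a2X male overlapped the lowest WT male for Cdkn1b. With RIN and the strand share, and no surrogate variables, the log2 fold changes in males were 0.06 for Ptpa, 0.08 for Psmd4, and -0.12 for Cdkn1b. The range of low strand share holds only 1 Ube3a2X male, so values of males within it rest on that mouse and are not given. Markers of other cell types did not pass in males but had a median log2 fold change of 0.38 for oligodendrocytes, 0.21 for microglia, and 0.22 for endothelium, and their part in the members' values was not tested.

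Ptpa also came closest to a sex*genotype interaction in the PFC, which is the fold change in males less that in females. The interaction was not called for any of the 7 members or for any other gene in edgeR (0% of genes) or limma-voom, and DESeq2 called 887 genes and 0 members. The study itself, with limma-voom and a further variance filter, reported many genes for this interaction. It also measured a few of them by qRT-PCR in separate mice. Why the counts differ was not tested. At an unadjusted p under 0.05, 3 of 7 members passed, Ptpa, Rnf2, and Arhgef15, against 25.6% of all genes. In females Ptpa had 141.8, 155.1, 162, 178.9, and 189.8 CPM in WT and 97.7, 144.9, 149.5, 160.3, and 178.1 CPM in Ube3a2X mice. The interaction of Ptpa was 0.23 (95% interval 0.05 to 0.41, edgeR adjusted p = 0.120). Under the other settings, 1 of which holds only 1 Ube3a2X male, it ran from -0.10 to 0.41. It was 0.16 without Ube3a2X female 468, the lowest library, and 0.08 without WT female 397. It passed without WT female 93 (0.31, adjusted p = 0.036, with 1965 genes called) or Ube3a2X female 462 (0.30, adjusted p = 0.0482, with 816 genes called). The interaction was -0.19 for Rnf2 (adjusted p = 0.166), and -0.12 without Ube3a2X male 258 and -0.03 with 2 components of 8 quality measures as covariates. It was 0.32 for Arhgef15 (adjusted p = 0.182), and 0.21 without male 258.

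No member was called for genotype in the Hypo either. None of the 8 passed for the genotype effect in edgeR, DESeq2, or limma-voom, against 0.00716% of the 13964 genes in edgeR, and 1, Rnf2, passed at an unadjusted p under 0.05, against 5.01%. Rnf2 had 27.5, 39.6, and 44.7 CPM at the lowest, median, and highest of 8 WT libraries and 33.7, 39.1, and 43.4 CPM of 10 Ube3a2X libraries, and its log2 fold change was -0.10 (95% interval -0.20 to -0.00, edgeR adjusted p = 0.948). The groups overlapped, the lowest WT value was that of female 471, and without that library the log2 fold change of Rnf2 was -0.07. It was -0.02 with RIN as the only covariate and -0.01 with RIN and the strand share. The other 7 intervals all held 0. Their lowest lower bound was -0.12, for Cdkn1b, and their highest upper bound 0.18, for Arhgef15 and Psmd4. Cbln1, which was abundant in this tissue, had 106, 119, and 198 CPM in WT and 91.4, 121, and 126 CPM in Ube3a2X libraries, a log2 fold change of -0.03 (95% interval -0.11 to 0.06). Outside that interval, Cbln1 was at -0.17 with RIN as the only covariate and at -0.15 with RIN and the strand share (edgeR adjusted p = 0.356), and in males at -0.31 with the latter (adjusted p = 0.210). The 198 CPM of Cbln1 was that of female 471, where the highest other library had 137 CPM, and these settings were not run without it. In the main fit Cbln1 was at -0.04 to 0.00 with 1 library left out. The Hypo value of Psmd4 was 0.07 and became -0.19 with RIN as the only covariate and 0.05 without female 471, which had 194.8 CPM of Psmd4 where the other 17 libraries had 82.2 to 96.1 CPM.

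Within the sexes of the Hypo, and for their difference, again no member passed. In males the share of all genes called was 0% and 8.51% passed at an unadjusted p under 0.05, as did 2 of 8 members, Rnf2 and Psmd4. Rnf2 had 35.9, 42.3, 43.9, and 44.7 CPM in WT males and 33.7, 36.1, 39.3, 41.5, and 43.4 CPM in Ube3a2X males, which overlap, and its log2 fold change was -0.20 (edgeR adjusted p = 0.567). That of Psmd4 was 0.16 (adjusted p = 0.576), and it turned to -0.02 with RIN as the only covariate and -0.23 with RIN and the strand share. Without female 471, which enters these contrasts through the shared covariates, the values in males were -0.13 for Rnf2 and 0.05 for Psmd4. With RIN and the strand share that of Rnf2 was -0.05. In females 0.00716% of genes were called and 3.1% passed at an unadjusted p under 0.05, with 0 members at either threshold. For the interaction 0% of genes were called and 6.57% passed unadjusted, with 1 member, Rnf2, among the latter (-0.20, adjusted p = 0.726). Its interaction ran from -0.39 with the quality components to -0.09 with RIN and the strand share, and was -0.11 without female 471. DESeq2 and limma-voom called 0 members in each of these contrasts. Between males and females, averaged over genotype, 0 of 7 members passed in the PFC (0.078% of genes) and 0 of 8 in the Hypo (2.06% of genes). At an unadjusted p under 0.05, Cbln1 alone passed in the Hypo, at -0.09 in males relative to females (edgeR adjusted p = 0.245, 18% of all genes), and 0 members in the PFC (8.48% of all genes). The Hypo value of Cbln1 was -0.23 with RIN as the only covariate, -0.25 with RIN and the strand share, and -0.05 without Ube3a2X male 258. DESeq2 and limma-voom called 0 members for sex.

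The genotype effect was not shown to differ between the tissues for any member. The test of that difference called 0 of 7 members in edgeR, DESeq2, and limma-voom and 0% of the 12569 genes in edgeR, and at an unadjusted p under 0.05 it passed 1 member, Psmd4, against 8.04% of genes. For Psmd4 the difference, Hypo less PFC, was -0.30 (95% interval -0.59 to -0.01, edgeR adjusted p = 0.614), and -0.06 without Hypo WT female 471. This fit over both tissues has RIN and no surrogate variables, so its values cannot be set against those of the single tissues. For Ptpa it was -0.00, with an interval from -0.26 to 0.25.

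The members were next related to the level of Ube3a in each library, among mice of the same sex and genotype, so that the separation of WT from Ube3a2X mice does not enter the slope. In the PFC, 0 of 7 members had a slope that passed in edgeR or limma-voom, against 0% of genes, and 0 passed at an unadjusted p under 0.05, against 8.3% of genes. The slope nearest to the threshold was that of Ptpa, -0.27 log2 units per 2-fold more Ube3a (95% interval -0.57 to 0.03, edgeR adjusted p = 0.605), with -0.09 when Ube3a2X female 468 was left out and -0.44 when male 258 was. In the Hypo, 5 of 8 members passed, against 46.6% of the 13963 genes, a share near the background. The 4 lower stand beside 22.4% of genes and the 1 higher beside 24.2%, and at an unadjusted p under 0.05 the same 5 passed, against 54.9% of genes. Psmd4 (-0.41), Cbln1 (-0.27), Ptpa (-0.21), and Kcnn2 (-0.19) were lower where Ube3a was higher, and Rnf2 (0.22) was higher (edgeR adjusted p = 0.0119 to 0.0344). Without WT female 471, whose Ube3a was 121 CPM, 0 members and 0 genes were called in the Hypo, 329 of 14108 genes passed at an unadjusted p under 0.05, and the slope of Psmd4 became 0.05, that of Cbln1 -0.06, and that of Ptpa -0.09. Among Ube3a2X libraries alone 0 members were called as well. Leaving out another library could also end calls, with 1 member left without WT female 262 or WT male 423 and 2 without Ube3a2X male 238. WT female 471 had the highest of 18 levels of Psmd4 (194.8 CPM), Cbln1 (198 CPM), Ptpa (287 CPM), Kcnn2 (45.4 CPM), and Arhgef15 (44.3 CPM) and the lowest of Rnf2 (27.5 CPM), while Cdkn1b (69.7 CPM) lay in the middle of the others.

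**Figure D3:**
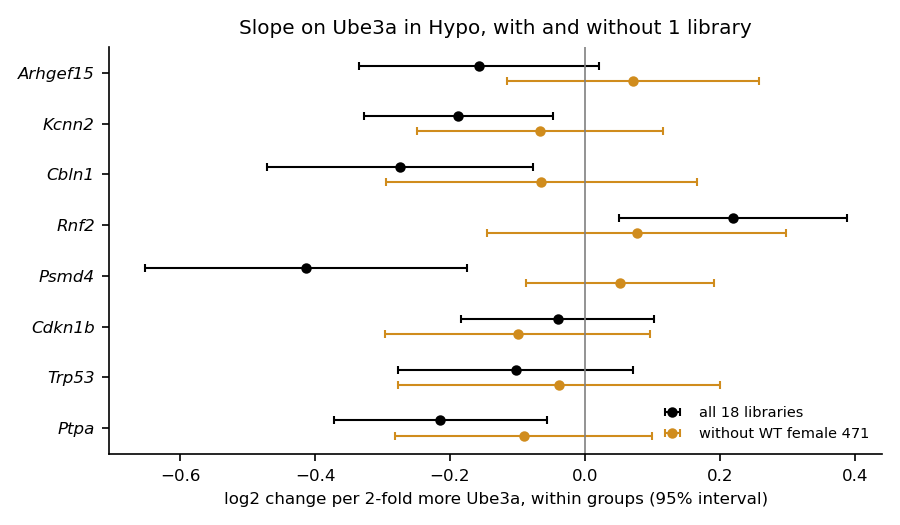
Slope of each of the 8 genes on Ube3a in the Hypo, as log2 change per 2-fold more Ube3a within groups, with 95% intervals from edgeR, for all 18 libraries (black) and without WT female 471 (orange). The interval lies off 0 for Kcnn2, Cbln1, Rnf2, Psmd4, and Ptpa with all libraries and crosses 0 for each of the 8 genes without that library.

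Ptpa was the one member whose level passed for a correlation with Ube3a among WT mice in both tissues. Unlike the slopes, these correlations pool the sexes and hold no covariate. Over the 10 PFC WT libraries, from 177 to 248 CPM of Ube3a, Ptpa went from 189.8 CPM in the mouse with the least Ube3a to 155.1 CPM in the mouse with the most, with Pearson r = -0.88 (two-sided permutation p = 0.00097, adjusted p = 0.0155 over the 32 relations tested) and Spearman rho = -0.82 (permutation p = 0.00598, adjusted p = 0.0957). Without the 2 libraries farthest from the median Ube3a level r was -0.90 (exact permutation adjusted p = 0.0619, no longer passing). Over the 8 Hypo WT libraries r was -0.94 (exact permutation p = 0.000223, adjusted p = 0.00714) and rho -0.93 (exact permutation p = 0.00223, adjusted p = 0.0714), with r = -0.89 without the 2 farthest (adjusted p = 0.178, no longer passing). Without female 471, chosen after seeing the data, r over 7 libraries was -0.96 (exact permutation p = 0.00179, adjusted p = 0.0286). The direction was thus the same in both tissues, but the rank correlations of Ptpa did not pass after adjustment.

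The relation was read against the other genes of the same libraries. In PFC WT, 1.95% of genes had an r with Ube3a as far from 0 as that of Ptpa. In Hypo WT the share was 24.1%, and 0.38% without female 471. With all libraries, 12 of 12568 genes (0.0955%) were as far below 0 as Ptpa in both tissues. That count takes 1 direction only, sets its bar at the values of Ptpa itself, and was not made without female 471. It is a description and no test of agreement between the tissues. In Ube3a2X mice Ptpa had r = -0.60 in the PFC (permutation p = 0.0659, adjusted p = 0.234) and -0.15 in the Hypo (permutation p = 0.684, adjusted p = 0.795). The PFC value of Ptpa in Ube3a2X mice became 0.11 without the 2 farthest libraries, 1 of them female 468, so it rested on those. The difference between the genotypes was not tested. Of the WT mice 4 gave both tissues, so the WT groups of PFC and Hypo are not fully independent.

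**Figure D4:**
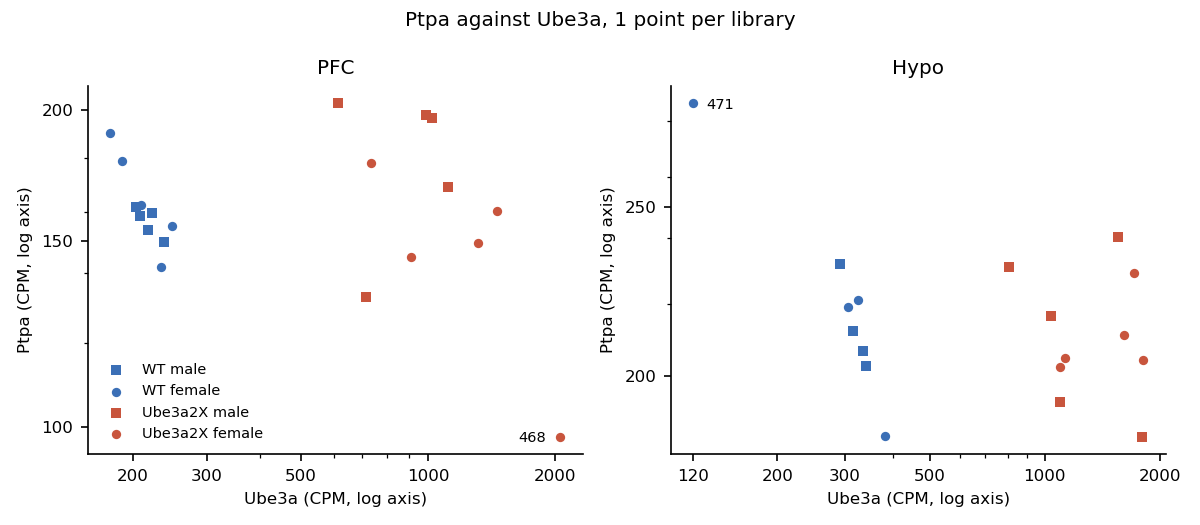
Ptpa against Ube3a in the PFC (left) and Hypo (right), in TMM-scaled CPM on log axes, with 1 point per library, WT in blue and Ube3a2X in red, males as squares and females as circles. Ptpa falls with Ube3a over the WT libraries of both tissues, and the Ube3a2X libraries, at higher Ube3a, overlap them in Ptpa and reach from 97.7 CPM, in PFC female 468, to 203 CPM in the PFC.

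Among the 28 relations of the other 7 genes to Ube3a, 1 passed, Trp53 in Hypo WT, with r = -0.82 (exact permutation p = 0.00429, adjusted p = 0.0458), where 53% of all genes had an r as far from 0. It did not pass without the 2 farthest libraries, where r was -0.40. Without female 471 it did not pass either, with r = -0.73 (exact permutation adjusted p = 0.528, 18.1% of all genes as far from 0). Psmd4 in Hypo WT had r = -0.97 with all libraries (exact permutation adjusted p = 0.173, 9.86% of all genes as far from 0) but 0.08 without the 2 farthest, which again include female 471.

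Several members were correlated with AT dropout, as were many other genes. Over the 20 PFC libraries, AT dropout correlated with Rnf2 at r = -0.83 (permutation p = 3e-05, adjusted p = 0.00288 over 96 relations) and with Ptpa at r = 0.75 (permutation p = 0.00042, adjusted p = 0.0134). An r at least as far from 0 was found for 3.71% of the 12824 genes in the case of Rnf2 and for 10.2% in that of Ptpa. For Trp53 r was 0.63 (permutation adjusted p = 0.0334, 26.6% of genes), but rho was 0.60 and did not pass (adjusted p = 0.105), and r was 0.51 without the 2 farthest libraries. Psmd4 had r = 0.19 over the PFC libraries and -0.12 over the 18 Hypo libraries, neither of which passed. Within the Hypo it was -0.43 in WT mice and 0.86 in Ube3a2X mice, where r passed (permutation adjusted p = 0.0434, 2.31% of genes) and rho did not (0.88, adjusted p = 0.0531). Over the PFC libraries Spearman rho was -0.80 for Rnf2 (adjusted p = 0.0048) and 0.56 for Ptpa (adjusted p = 0.120), and r without the 2 farthest libraries was -0.67 for Rnf2 and 0.47 for Ptpa. Within PFC Ube3a2X mice r was -0.92 for Rnf2 and 0.89 for Ptpa. Within PFC WT mice it was -0.68 for Rnf2 and 0.04 for Ptpa, or 0.39 for Ptpa without the 2 farthest libraries. Within Hypo WT mice it was 0.05 for Ptpa, or 0.87 without the 2 farthest, so a link of Ptpa to AT dropout rests there on which libraries are kept. Its part in the relation of Ptpa to Ube3a was not tested. With 2 components of 8 quality measures in the model, the slope of Ptpa on Ube3a was -0.11 in the PFC and -0.09 in the Hypo, and neither passed. The 96 relations also covered the strand share, and no relation to it passed. Those of Psmd4 came nearest, with r = 0.62 in the PFC (permutation adjusted p = 0.0518) and -0.72 in the Hypo (adjusted p = 0.0527). Without the 2 farthest libraries these were 0.55 and -0.17.

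The largest differences of these genes were between the tissues. To set the tissues side by side, all libraries were scaled together. Per kilobase of exon, Cbln1 had 0.921 ± 0.342 CPM in the PFC (SD, n = 20) and 37.1 ± 6.80 CPM in the Hypo (SD, n = 18), the lowest and the second highest level of the 8 genes. The order in the PFC ran from Cbln1 over Arhgef15 (3.20), Trp53 (3.61), Kcnn2 (4.49), Rnf2 (10.03), Cdkn1b (10.1), and Psmd4 (28.9) to Ptpa (33.7 CPM per kb). In the Hypo it ran from Kcnn2 (4.14) over Trp53 (4.26), Arhgef15 (4.63), Rnf2 (8.79), Cdkn1b (14.4), Psmd4 (31.5), and Cbln1 to Ptpa (38.8 CPM per kb). In the PFC the steps from Rnf2 to Cdkn1b (SD 0.943 and 0.728) and from Psmd4 to Ptpa (SD 1.97 and 5.14) were within the spread of these levels, and the step from Arhgef15 to Trp53 (SD 0.391 and 0.360) was about as large as it. In the Hypo the steps among Kcnn2, Trp53, and Arhgef15 (SD 0.468, 0.389, and 0.539) and among Psmd4, Cbln1, and Ptpa (SD 8.49, 6.80, and 4.08) were within it.

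Of the 7 members tested in both tissues, 5 passed for the tissue difference in edgeR, 4 higher and 1 lower in the Hypo, against 66.5% of the 12569 genes (34.4% higher and 32% lower), and the same 5 passed at an unadjusted p under 0.05, against 68.9%. The share is near the background, and the median log2 difference was 0.21 over the 7 members and 0.02 over all genes. Cdkn1b was higher in the Hypo by 0.53 on the log2 scale (SE 0.05, adjusted p = 2.78e-10) and Arhgef15 by 0.50 (SE 0.09, adjusted p = 5.15e-06). Ptpa was higher by 0.32 (adjusted p = 0.00362) and Trp53 by 0.21 (adjusted p = 0.0158), and Rnf2 was lower, at -0.25 (adjusted p = 0.00651). Kcnn2 (-0.15, adjusted p = 0.0784) and Psmd4 (0.05, adjusted p = 0.681) did not pass. Cbln1, tested only with the looser filter, was higher by 5.16 (95% interval 4.81 to 5.50, edgeR adjusted p = 1.63e-24). With that filter Trp53 did not pass (0.15, adjusted p = 0.0997) and Kcnn2 did (-0.20, adjusted p = 0.0226). Without Hypo WT male 423, whose RIN of 6.8 was the lowest of that tissue, Rnf2 (-0.17, adjusted p = 0.152) and Trp53 (0.18, adjusted p = 0.128) did not pass and Kcnn2 did (-0.25, adjusted p = 0.0236). Kcnn2 also passed without PFC Ube3a2X male 258 (-0.17, adjusted p = 0.0433) or Hypo WT female 471 (-0.15, adjusted p = 0.0305). Tissue cannot be told apart from the way it was dissected and the amount of RNA used. The markers of excitatory neurons summed to 1626 to 2161 CPM in the PFC and 324 to 501 CPM in the Hypo, and their part in these differences was not tested.

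The tissues were also set side by side within the 13 mice that gave both, whose libraries are among those of the fit above. Arhgef15, Cbln1, Cdkn1b, and Trp53 were higher in the Hypo in 13 of 13 mice, as were 22.6% of the 12569 genes kept in both tissues. The median log2 ratio of Hypo over PFC was 0.47 for Arhgef15 (0.29 to 0.95), 5.26 for Cbln1 (4.56 to 6.29), 0.51 for Cdkn1b (0.19 to 0.77), and 0.26 for Trp53 (0.05 to 0.65). Kcnn2 was lower in the Hypo in 12 of 13 mice (median -0.19). Ptpa was higher in 10 of 13 (median 0.19), Rnf2 lower in 9 (median -0.16), and Psmd4 higher in 8 (median 0.03). The widest spread among mice was that of Cbln1, then of Ptpa, whose ratios ran from -0.24 to 0.86.

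**Figure D5:**
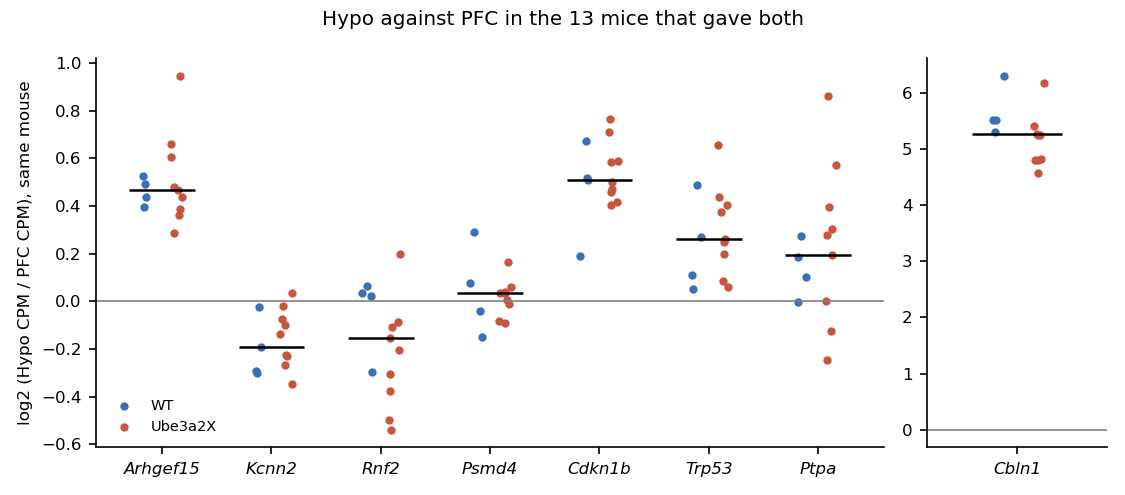
Log2 ratio of Hypo over PFC level in each of the 13 mice with both tissues, for 7 genes (left) and for Cbln1 on its own scale (right). Points are mice, WT in blue and Ube3a2X in red, lines are medians, and libraries of both tissues were scaled together. Arhgef15, Cdkn1b, Trp53, and Cbln1 lie above 0 in all 13 mice.

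The partners of each member were not called for genotype in edgeR. Of the 101 genes in 9 lists, of other reported UBE3A substrates and of the pathway of each member, 0 passed in edgeR for the genotype effect, in either sex, or for the interaction in either tissue. For the genotype effect averaged over the sexes limma-voom and DESeq2 called 0 as well, and 9 of 95 in the PFC and 7 of 97 in the Hypo passed at an unadjusted p under 0.05 in edgeR, against 7.47% and 5.01% of all genes. DESeq2 called 3 of 95 in PFC males, against 2.69% of all genes, and 2 of 95 for the PFC interaction, against 7.5% of the genes that it gave an adjusted p. Of the 16 other substrates tested in the PFC, 1 passed at an unadjusted p under 0.05, Pml (-0.16, edgeR adjusted p = 0.451). In the PP2A list around Ptpa the smallest p was that of the regulatory subunit Ppp2r5c (0.10, adjusted p = 0.534). The smallest p of other lists belonged to Efnb3, a ligand of Eph receptors (0.29, adjusted p = 0.330), Cbln2 (-0.20, adjusted p = 0.518), and Pcgf6 of Polycomb complex 1 (-0.12, adjusted p = 0.728). In the proteasome list it was Uchl5 (0.11, adjusted p = 0.685), in the kinase list Skp2 (-0.27, adjusted p = 0.354), which marks the Cdkn1b product for degradation, and in the p53 list Cdkn1a (0.48, adjusted p = 0.599).

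In the Hypo the smallest adjusted p of a list gene for genotype was 0.948. Genes of smallest p in their lists, in log2 fold change, included Aldh1a2 (-0.59), Ephb1 (0.20), Kcnn3 (-0.13), Cbln2 (0.14), Rybp (-0.16), Foxo1 (-0.13), Phlda3 (0.09), and Ppp2cb (-0.05). Sex, by contrast, was called in the Hypo for 6 of 97 list genes in edgeR, against 2.06% of all genes, and for 9 in DESeq2, against 5.43%. At an unadjusted p under 0.05 in edgeR, 16 of 97 passed, against 18% of all genes, so there the lists were near the background. Esr1, the estrogen receptor, was at -0.52 in males relative to females (edgeR adjusted p = 0.0143). The cerebellin list had 3 of 7 genes lower in males, among them Cbln2 (-0.35, adjusted p = 0.0277) and Cbln4 (-0.20, adjusted p = 0.0432). Efnb1 (0.31, adjusted p = 0.0106) and Phc2 (0.14, adjusted p = 0.0472) were higher in males. Without female 471, 5 of these 6 passed, against 2.86% of all genes, and Cbln4 was at -0.18 (edgeR adjusted p = 0.0505).

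Between the tissues 34.4% of all genes were called higher and 32% lower in the Hypo, and the lists of Kcnn2 and Ptpa are read against those shares. Of 9 SK channel partners 7 were lower and 1 higher in the Hypo, with a median of -0.52 against 0.02 for all genes, among them Calm2 (-1.28), Kcnn1 (-1.59), and Calm3 (-0.98). Of 11 PP2A genes 8 were lower and 0 higher, with a median of -0.37, led by Ppp2r2b (-0.86, edgeR adjusted p = 3.64e-18), Ppme1 (-0.79), Ppp2r5c (-0.63), and Ppp2cb (-0.56), whereas Ptpa itself was higher. In the list of Cbln1, Cbln4 (2.20, adjusted p = 1.37e-15) and Grid1 (0.52) were among the 3 higher, and Cbln2 (-0.73) among the 3 lower, of 7. The Arhgef15 list had 3 higher and 5 lower of 10, among them Ngef, the close relative of Arhgef15 (-1.78), Efnb3 (1.86), Efnb2 (-0.97), and Ephb3 (-1.87). Of 16 Polycomb complex 1 genes 7 were higher and 4 lower, the 4 of smallest p being Cbx6 (-1.19), Yaf2 (-0.81), Bmi1 (-0.44), and Cbx7 (0.50). The kinase list of Cdkn1b had 3 higher and 6 lower of 10, with Foxo3 (-0.94), Ccnd2 (-1.59), Ccne1 (-1.18), and Foxo1 (0.57) in front.

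Of the 11 tested genes of the p53 list, 4 were higher and 4 lower in the Hypo, with Ccng1 (-1.01), Trp53inp1 (0.81), Zmat3 (-0.55), and Mdm4 (0.42) of smallest p. Of 9 proteasome genes 1 was higher and 3 lower, Psmd1 (0.24) and Rad23b (-0.52), Uchl5 (-0.91), and Usp14 (-0.21). Among the 16 other substrates 4 were higher and 5 lower, with Peg10 (4.83, edgeR adjusted p = 3.75e-30) and Esr1 (2.42) higher and Pml (-1.14) and Arc (-3.93) lower. Over all lists 68 of 94 genes passed for tissue, against 66.5% of all genes, and 70 without Hypo WT female 471, against 71.2%.

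The genes most like each member were sought by Pearson r of log2 CPM over all libraries of a tissue. In the PFC, Ptpa was most like B3gat3, Maz, and Use1 (r = 0.98, 0.98, and 0.97 over 20 libraries), and Elavl1 and Ddx5 were among the 3 genes most like Rnf2 (0.92 and 0.91). Without female 468 these were 0.96, 0.95, and 0.95 for Ptpa and 0.89 and 0.87 for Rnf2. The nearest genes of the others in the PFC were Dnajc11 for Arhgef15 (0.84), Anxa5 for Kcnn2 (0.67), Gm45495 for Cbln1 (0.85), Lgmn for Psmd4 (0.75), Pcmtd2 for Cdkn1b (0.83), and Gga3 for Trp53 (0.84). Without female 468 another gene came first for Arhgef15, Kcnn2, Cbln1, and Cdkn1b. In the Hypo, Psmd4 was most like Nsfl1c and the proteasome genes Psmc4 and Psmc3 (0.98 each over 18 libraries), and these fell to 0.78, 0.66, and 0.71 without female 471. Ptpa was most like Pink1, Mlf2, and Tle5 (0.97 each) and stayed at 0.94, 0.94, and 0.92 without it. The nearest genes of the others in the Hypo were Bin1 for Arhgef15 (0.93), Arl4d for Kcnn2 (0.91), Rrs1 for Cbln1 (0.97), Hspa13 for Rnf2 (0.95), Pde12 for Cdkn1b (0.78), and Sox12 for Trp53 (0.93). Without female 471 another gene came first for Arhgef15, Rnf2, and Cdkn1b, and also for Psmd4. These values are descriptions, and the libraries share depth, base composition, and RNA quality.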

How the data were processed

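RNA-seq reads of 38 libraries were aligned by the authors with STAR to GRCm38 and counted with featureCounts, on an annotation they name Gencode v24. The deposited counts of reads per gene carry no normalization. The deposited quality table gives RIN and AT dropout as a score, shares of reads and bases as a fraction, coverage bias as a ratio, and aligned reads as a count, measured by the authors with Picard. Gene coordinates and exon lengths came from GENCODE vM21.

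The 8 genes, the partner lists, and the tests were chosen with earlier results of these data known. Each tissue was fitted in R 4.3.3 with edgeR 4.0.16 (TMM, glmQLFit with robust estimation, glmQLFTest): RIN, 2 surrogate variables (sva 3.50.0), and the 4 combinations of genotype and sex, as in the study's model. A gene was dropped where 2 or more libraries of the tissue had under 100 reads for it, and p-values were adjusted by Benjamini-Hochberg over all genes left. A further filter on low variance, after the study's, was an alternative that removed Psmd4 and Cdkn1b in the PFC and Cdkn1b in the Hypo. Slopes on Ube3a used groups, RIN, and the log2 CPM (prior count 2) of Ube3a, and tissue contrasts 8 groups and RIN. Groups of 1 tissue hold separate mice. DESeq2 1.42.0, limma-voom (limma 3.58.1), other scaling, filters, and covariates, and leaving out each library were alternatives, and the strand share settings were added after seeing the data. Settings with RIN only, the quality components, or the strand share hold no surrogate variables. Correlations used scipy 1.17.1 in Python 3.11.15 with two-sided permutation, exact under 10 libraries and 100000 resamples otherwise. They pooled the sexes and had no covariates. The scripts were tested on simulated data.

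The pairing of tissues comes from the mouse numbers of the labels. Over 13 mice the deviations of both tissues from their group means correlated at -0.55 to 0.41 (median -0.06). In the 72 within-group pairs of libraries a chi-square per gene gave 14.9 to 701, where sampling noise alone gives about 1, so the spread between libraries, whatever its source, set the precision and no library was a copy of another.

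Named are the 8 genes and Ube3a, up to 4 called genes of smallest p per list and contrast or else the gene of smallest p, and the 3 genes most like each member, of which the first is printed for most. Results of a few genes these rules pick are not reported here.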

Additional observations from a re-analysis of the deposited data

Results flagged for a closer look

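In 4 of 72 groups of libraries of 1 gene, tissue, sex, and genotype, the most extreme library lay far from the others by Dixon's criterion at 95%, which chance alone gives in about 1 in 20 groups. Psmd4 was in 3 of them. In Hypo WT females it had 194.8 CPM in mouse 471, where the next library had 88.4 CPM, and that library was also extreme for most other genes. In PFC Ube3a2X males Psmd4 had 69.8 CPM in mouse 258, below the next at 79.6 CPM, and in PFC WT males 80.5 CPM in mouse 251, above the next at 71.2 CPM. The log2 fold change of Psmd4 in PFC males was 0.17 with all libraries and 0.15 to 0.21 with 1 PFC library left out. Arhgef15 had 35.7 CPM in Hypo Ube3a2X female 420, the most deeply sequenced library, and 31.4 CPM in the next. No cause was tested.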

How the results depend on the processing

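The count of members called for genotype, sex, or the difference of the genotype effect between tissues was 0 under every alternative run, while the sex*genotype interaction of the PFC went from 0 members to 0 to 1 when 1 library was left out. The Hypo slope on Ube3a went from 5 members to 0 with the quality components, to 0 in Ube3a2X libraries only, and to 0 to 5 when 1 library was left out (0 without WT female 471), with 2 left without Ube3a2X male 238 and 1 without WT female 262 or WT male 423. The Psmd4 slope on Ube3a turned from -0.41 to 0.0652 in Ube3a2X libraries only and ranged from -0.48 to 0.0519 when 1 library was left out, the latter without WT female 471. Correlations with Ube3a that passed went from 3 to 0 without the 2 farthest libraries, to 3 on linear CPM, and to 4 with RLE scaling. With the mouse as a replicate block (limma-voom), 5 members and 8342 genes were called for the tissue difference, against 5 and 8378 without the block, and the block changed no other call. The tissue count was 4 to 6 members when 1 library was left out. Of single log2 values, 2066 genotype and sex values kept their direction and call or stayed within their interval, 47 moved outside it, and 2 gained a call. The cause of these shifts was not tested. Depth limits Cbln1 in the PFC, at 49 to 273 reads per library.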
